A study of Mus musculus with 30 samples.

Results

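Heat shock proteins and their partners were measured in the hippocampus and in the rest of the brain of aged mice. The genes were taken by name alone, as symbols that begin with Hspa, Hspb, Hspd, Hspe, Hsph, Hsp90, Dnaja, Dnajb or Dnajc, with the chaperonin genes Tcp1 and Cct2 to Cct8, the co-chaperones Bag1 to Bag6 and the transcription factor Hsf1. Of the 90 protein-coding symbols that fit these names, 88 had a matched probe, among the 36717 genes and transcripts of the array. Hspa1b and Dnajb5 had none and were not analysed here. The probe of Hspa1a may also bind RNA of Hspa1b, its near-identical neighbour, so its values may be those of the pair.

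There were 15 arrays of hippocampus and 15 of brain without hippocampus, and the sample titles number each tissue alike from 0 to 14, which was taken as the number of the mouse. All mice carried the strain label C57BL/6j, were 15 to 20 months old and were perfused with PBS. The 3xTgAD mice (2 females and 3 males) are a model of Alzheimer's disease whose transgenes, human APP with the Swedish mutation and human mutant tau, are under a neuronal Thy1 promoter. The 3xTgAD-BKO mice (2 females and 3 males, labelled JHT_3xTgAD) carry the same alleles on the JHT background, which lacks B cells. The controls were wild-type (WT, 3 females) and JHT mice without the transgenes (2 females), so neither has males. Nothing in the labels says whether mice of a group were littermates, so p-values measure the spread between these mice, and the small number of arrays limits the precision of each value.

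Chaperones help proteins fold and keep them from aggregating. HSP70 proteins bind exposed stretches of unfolded proteins in a cycle driven by ATP, J-domain proteins (the Dnaj genes) deliver substrates and start the cycle, and HSP110 and BAG proteins release the nucleotide. HSP90 matures signalling proteins, the TRiC chaperonin folds actin and tubulin, small heat shock proteins hold unfolded clients, and HSF1 switches on many of these genes when unfolded protein builds up. In neurons, chaperones also serve synaptic vesicles, and amyloid and tau are among their clients.

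The 88 genes fell into 10 HSP70 genes, 3 HSP110, 3 HSP90, the HSP60 and HSP10 pair (2), 8 small heat shock genes, 4 DNAJA, 12 DNAJB, 28 DNAJC, 9 TRiC, 6 BAG, Hsf1, and 2 genes of proteins that bind heat shock proteins, which the name rule also took in (Hspbp1 and Hspbap1). A total of 77 were well above background on all 30 arrays and 80 were detected in at least 1 group. The remaining 8 (Hspb7, Hspbap1, Dnajb7, Dnajb8, Dnajb13, Dnajc5b, Dnajc5g and Dnajc22) were well above background on 5 arrays or fewer, and their values are given only in counts.

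The control elements in front of some of these genes are shown because they mark 2 branches of the chaperone response. The 250 bases before each listed start were searched in the RefSeq promoter windows (GRCm38.p6, found for 71 of the 88 genes). The search used 3 units of the heat shock element that HSF1 binds, written GAANNTTCNNGAA or TTCNNGAANNTTC on either strand. It matched 3 of the 71 genes (4.23%) against 139 of 27025 genes (0.514%). The matched genes were Hspd1 and Hspe1, which encode the mitochondrial chaperonin HSP60 and its cap HSP10, and Dnajb6, a J-domain protein that holds back protein aggregates. Hspd1 (start at 55087932, minus strand) and Hspe1 (start at 55088148, plus strand) lie head to head on chromosome 1 with 215 bases between these starts. The element lies in between (chr1:55088053-55088082, plus strand), so both genes are matched through the same site. The 17 genes without a window were not searched, and other forms of the element were not counted. The Dnajb6 stretch is chr5:29735818-29735897, plus strand. Capitals mark the element.
Hspe1 and Hspd1: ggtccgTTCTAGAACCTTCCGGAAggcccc
Dnajb6: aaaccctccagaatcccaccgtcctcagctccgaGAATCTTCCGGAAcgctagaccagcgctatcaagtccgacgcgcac

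The ER stress element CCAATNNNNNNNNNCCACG, searched on both strands, is the site through which unfolded protein in the endoplasmic reticulum induces its chaperones. It matched 3 of the 71 genes (4.23%) against 35 of 27025 genes (0.13%). They were Hspa5 (BiP, the HSP70 of the endoplasmic reticulum, chr2:34771990-34772089, plus strand), Hsp90b1 (GRP94, its HSP90, chr10:86705515-86705674, minus strand, with a copy on each strand) and Dnajc3 (a J-domain partner of BiP, chr14:118937802-118937881, plus strand). Capitals mark the element. A match describes these letters and shows neither binding nor use in these tissues.
Hspa5: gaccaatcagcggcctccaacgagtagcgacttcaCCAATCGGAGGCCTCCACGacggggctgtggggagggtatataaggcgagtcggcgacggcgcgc
Hsp90b1: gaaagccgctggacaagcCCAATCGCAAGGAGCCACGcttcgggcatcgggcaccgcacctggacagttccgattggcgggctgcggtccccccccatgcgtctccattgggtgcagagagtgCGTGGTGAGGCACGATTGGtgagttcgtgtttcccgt
Dnajc3: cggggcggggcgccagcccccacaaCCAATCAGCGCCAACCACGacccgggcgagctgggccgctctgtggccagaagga

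Levels are given as log2 of the scanner's processed signal after quantile normalization of the 30 arrays. A difference is called when the adjusted p of limma's moderated test (Benjamini-Hochberg over all 36717 genes and transcripts) lies under 0.05. The arrays were run on 4 slides, and slides and tissues almost coincided: slide 2 held 7 hippocampal arrays and 1 brain array, and the other slides held 1 tissue each. Xist, Ddx3y, Eif2s3y and Uty separated the sexes and Thy1, whose promoter drives the transgenes, separated the transgenic mice as labelled, while Kdm5d, dim in females (2.15 to 2.27), ran from 2.21 to 7.32 in males and did not separate all of them. One array stood apart: the hippocampal array of mouse 0, a 3xTgAD-BKO male, had 432 spots set aside as outliers against 102 to 160 on the others. Cell type markers also differed between arrays, with the mean of 8 choroid plexus markers ranging from 6.66 to 13.39 over the hippocampal arrays.

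The first question was how chaperone expression differs between the hippocampus and the rest of the brain. Of the 8 small heat shock genes 6 were lower in hippocampus, as was the J-domain gene Dnajc12, and the HSP70 genes Hspa2, Hspa12a and Hspa1a and the clathrin-uncoating factor Dnajc6 were higher. Of the 88 genes, 61 were called, 24 higher and 37 lower in hippocampus, where 51.1% of all genes were called, 25.1% higher and 26% lower. Of the 77 chaperones well above background on all arrays, 56 were called (72.7%), 21 higher and 35 lower, close to the 71.3% (34.8% higher and 36.4% lower) of all genes so expressed. The median change of the 77 was -0.10 against -0.02 for all 19617 genes on all arrays. Quantile normalization within each tissue, which places the median of all genes at -0.97, turned 20 of the 21 called and detected higher genes to lower, all but Dnajc6, and none of the 36 lower ones to higher, so each tissue change is relative to the common scale of the 30 arrays. Of the 61, Hspb7, Hspbap1 and Dnajb8 (higher) and Dnajc22 (lower) were too dim in both tissues for their change to be read. The tissue counts of families and lists stand against the same shares of all genes.

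**Figure D1:**
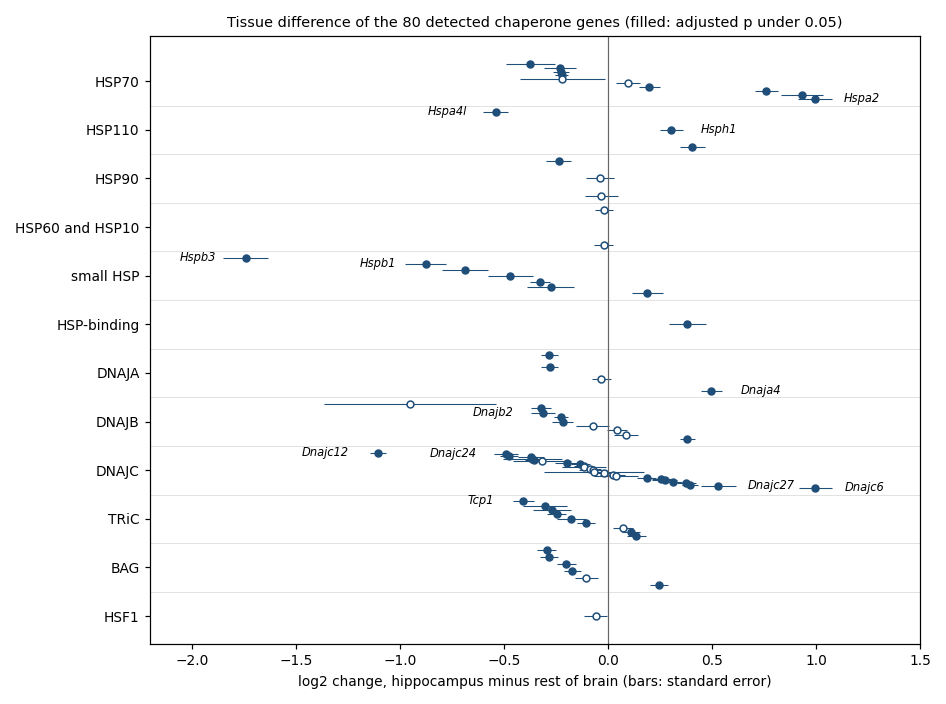
Log2 change of the 80 detected chaperone genes, hippocampus minus rest of brain, grouped by family on the vertical axis, with bars for 1 standard error and filled points for adjusted p under 0.05. Most points lie between -0.5 and 0.5, and Hspb3 (-1.74) and Dnajc12 (-1.11) lie farthest to the left.

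Among the 8 small heat shock genes, 6 were called lower in hippocampus and 2 higher, Hspb9 (0.19, SE 0.0754) and the dim Hspb7. With the slide as a block, only Hspb3 and Hspb6 of the 8 were called. Hspb3, a small heat shock protein known from muscle and motor neurons, ranged from 6.51 to 7.88 (median 7.19) in the 15 hippocampal arrays and from 8.63 to 9.25 (median 8.87) in the 15 brain arrays. These ranges did not overlap, and the change was -1.74 (SE 0.107, adjusted p = 2.81e-11). Hspb1 (HSP27), an actin-protecting holdase of glia and vessels, ranged from 11.64 to 12.90 (median 12.33) in hippocampus and from 12.83 to 13.63 (median 13.23) in brain. The ranges met at their ends, with a change of -0.88 (SE 0.0992, adjusted p = 2.24e-07). Hspb6 (HSP20), abundant in smooth muscle, fell by 0.69 (SE 0.112), and Hspb8, the small heat shock partner of Bag3, fell by 0.28 (SE 0.113, adjusted p = 0.0470). The call of Hspb8 was lost in 13 of the 15 fits that left out 1 mouse.

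Dnajc12, a J-domain partner of the enzymes that hydroxylate aromatic amino acids on the way to dopamine and serotonin, showed the tightest separation. It ranged from 11.49 to 11.77 in hippocampus and from 12.56 to 12.84 in brain. Every hippocampal array was below every brain array, and the change was -1.11 (SE 0.0388, adjusted p = 3.73e-15). Dnajc24, which serves diphthamide synthesis, fell by 0.49 (SE 0.0571), and the HSP110 gene Hspa4l fell by 0.54 (SE 0.06). In the same family, Hsph1 rose by 0.30 (SE 0.0557) and Hspa4 by 0.40 (SE 0.06). With the slide as a block Hspa4l was at -0.10 (adjusted p = 0.836) and Hspa4 at 0.36 (adjusted p = 0.343), and neither was called.

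Among the genes higher in hippocampus, Dnajc6 (auxilin), which strips clathrin from synaptic vesicles, ranged from 8.40 to 9.15 against 7.27 to 8.06 in brain. The ranges did not overlap, and the change was 0.996 (SE 0.0793, adjusted p = 1.40e-09). Hspa2, an HSP70 best known from testis and also present in brain, ranged from 11.99 to 13.13 (median 12.88) against 11.61 to 12.03 (median 11.87). Here 1 hippocampal array, that of mouse 0, lay within the brain range, and the other 14 lay above it, for a change of 0.99 (SE 0.0825, adjusted p = 2.59e-09). Hspa1a, the classic stress-induced HSP70, ranged from 9.21 to 9.86 against 8.52 to 8.97. Its ranges did not overlap either, with a change of 0.76 (SE 0.0549, adjusted p = 3.07e-10).

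**Figure D2:**
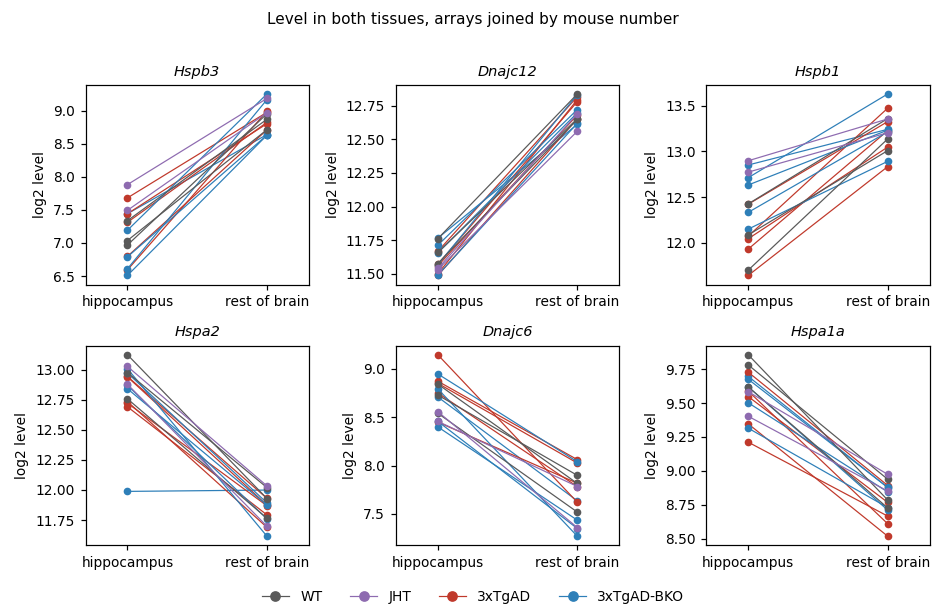
Log2 level of 6 chaperone genes in hippocampus and in the rest of the brain, with a line joining the arrays that share a mouse number and colours for genotype. Hspb3, Dnajc12 and Hspb1 slope upward from hippocampus to brain, Hspa2, Dnajc6 and Hspa1a slope downward, and the exception is the flat Hspa2 line of mouse 0.

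Hspa12a, a divergent HSP70 of neurons, rose by 0.93 (SE 0.0994), while the fit with the slide block put it at 0.45 (adjusted p = 0.488), not called. Dnajc27, a RAB-like GTPase with a J domain, rose by 0.53 (SE 0.0853), and Dnaja4, a cytosolic J-domain partner of HSP70, by 0.50 (SE 0.0510). Dnajc5, the cysteine string protein of synaptic vesicles, rose by 0.31 (SE 0.0390), and Hspa8, the constitutive HSP70 that works with Dnajc5 and Dnajc6, by 0.20 (SE 0.0509). With the slide as a block Dnajc27 (0.499), Dnaja4 (0.44) and Hspa8 (0.31) kept their sign but were not called, while Dnajc5 (0.24) kept its call. The list of neuronal and synaptic chaperones had 5 of 8 genes called higher and 1, Dnajb2, called lower (change -0.31, SE 0.0590), where 51.1% of all genes were called (25.1% higher) and 71.3% of those on all arrays (34.8% higher). The list's median change was 0.26, against -0.02 for the genes on all arrays. Other probes of Hspa8, Dnajb6, Dnaja2, Dnajc10 and Dnajc19 went the other way from the probe used.

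The genes of the stress-inducible list did not move together in the fit without the slide. Of 9 measured, 3 were called higher, Hspa1a, Hsph1 and Hspa8, the last a constitutive HSP70 that the list also held. Another 5 were called lower. Among them were Dnajb1, the inducible partner of HSP70 (-0.32, SE 0.0482), and Hsp90aa1, the inducible HSP90 (-0.24, SE 0.0617). Bag3, an HSP70 exchange factor of selective autophagy, was also among them (-0.28, SE 0.0444). Hsf1 itself, the activator of stress-inducible genes, was not called, at -0.06 with a 95% interval from -0.17 to 0.05. With the slide as a block Hspa1a (0.69) and Hsph1 (0.53) kept their calls. Hspa8 (0.31), Dnajb1 (-0.13), Bag3 (-0.36) and Hsp90aa1, whose sign turned (0.22), were then not called. Of the 8 chaperones of the endoplasmic reticulum, 2 were called higher and 2 lower. Of the 3 genes with an ER stress element in the window, Hspa5 was lower, at -0.23 (SE 0.0783, adjusted p = 0.0178), Dnajc3 was higher, at 0.26, and Hsp90b1 was not called, at -0.04 (interval -0.18 to 0.11). With the slide as a block none of these was called: Hspa5 was at 0.02 (adjusted p = 0.977), Dnajc3 at 0.29 (adjusted p = 0.120) and Hsp90b1 at -0.21 (adjusted p = 0.610). The call of Hspa5 was lost without mouse 1, 6 or 14 (-0.22, -0.21 and -0.21), in 7 of 27 other settings in all, and its sign turned in 1 more, the slide block.

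Neither Hspd1 nor Hspe1, which share the heat shock element printed above, was called between the tissues, and the part of the element was not tested. Hspd1 ranged from 14.38 to 14.95 in hippocampus and from 14.43 to 14.71 in brain, and Hspe1 from 13.75 to 14.32 and from 13.87 to 14.15. Both ranges overlapped widely, and the changes were -0.02 for each (both intervals -0.11 to 0.07). With the slide as a block Hspd1 was at -0.04 and Hspe1 at 0.14, and neither was called. Dnajb6 was not called either (0.09, interval -0.03 to 0.20). Hspa9 (mortalin), the HSP70 of mitochondria, fell by 0.22 (SE 0.0309), and 4 of the 9 mitochondrial genes were called in all, 1 higher and 3 lower. With the slide as a block Hspa9 was at -0.15 (adjusted p = 0.382), not called.

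The TRiC ring had 8 of 9 genes called, 2 higher and 6 lower, with changes from -0.41 to 0.14 and a median of -0.18, where 51.1% of all genes and 71.3% of those on all arrays were called. With the slide as a block, only Tcp1 kept its call and direction. Cct3 (-0.05) and Cct7 (-0.21), the higher pair, were then below 0, and Cct2 (0.22) and Cct4 (0.49) above it. Tcp1, its alpha subunit, ranged from 13.03 to 13.51 in hippocampus and from 13.43 to 13.88 in brain and fell by 0.41 (SE 0.0507, adjusted p = 8.44e-07). Dnajb4, a cytosolic J-domain protein named after its values were seen, had a large change of -0.95 that was not called (SE 0.414, adjusted p = 0.0615), and the hippocampal array of mouse 0 lay at 2.69 while the other 14 ranged from 8.06 to 8.68. Of the 6 BAG genes, 4 were called lower and Bag4, a silencer of death receptors, higher. Of the other constitutive chaperones, Hsp90ab1 changed by -0.03 (interval -0.20 to 0.13). The endothelial HSP70 gene Hspa12b fell by 0.37 (SE 0.118) and was not called with the slide as a block (-0.58, adjusted p = 0.239). Outside the heat shock names, 42 further chaperones and co-chaperones had 12 genes called higher and 19 lower, and 17 genes of the unfolded protein response had 2 called higher and 11 lower.

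Cell type markers differed between the tissues as well. The median change was -1.59 for 8 choroid plexus markers (6 called lower), 0.31 for 8 microglia markers (6 higher), -0.29 for 8 oligodendrocyte markers (1 higher and 4 lower), -0.15 for 8 astrocyte markers (2 higher and 4 lower), 0.46 for 8 markers of ependyma and motile cilia (4 higher and 1 lower), 0.09 for 8 smooth muscle and pericyte markers (4 higher and 1 lower), -0.14 for 10 endothelium markers (1 higher and 4 lower), -0.59 for 8 blood markers (1 lower) and -0.09 for 8 neuron markers (3 higher and 4 lower). Their part in the chaperone changes was not tested, and in bulk tissue fewer cells of a type and less RNA per cell cannot be told apart.

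The slides bear on all of these tissue values. With the slide as a block in the fit, 22 genes were called (18% of all genes), and 15 of these had been called in the same direction without it. The 15 were Hspb3 (-2.19), Dnajc12 (-1.01), Hspb6 (-1.28), Dnajb2 (-0.86), Dnajc24 (-0.68), Dnajc15, Dnajc4, Tcp1 (-0.52) and Dnajb9 on the lower side, and Hspa2 (1.34), Dnajc6 (1.04), Hspa1a (0.69), Hsph1 (0.53), Bag4 and Dnajc5 (0.24) on the higher side. Another 29 kept their sign and lost their call, among them Hspb1 (-0.86, adjusted p = 0.136) and Hspa12a. The sign turned in 17 of the 61, from lower to higher in 11 (among them Dnajc25 at 0.83, Hsp90aa1 at 0.22, Bag1 at 0.20 and Hspa5 at 0.02) and from higher to lower in 6 (among them Hspbp1 at -0.40 and Hspb9 at -0.20). Of the 17, only Cct4 was called with the block (0.49, adjusted p = 0.00411). The other 6 of the 22 calls were Dnajc8 (0.84), Hsp90ab1 (0.76, adjusted p = 2.25e-05), Dnajb4 (2.57), Dnajc2 (2.11), Dnajc13 (0.56) and Dnajc17 (-0.76). Apart from Dnajc17, each of these genes, and Cct4, was at least 1.06 below the median of the other hippocampal arrays on that of mouse 0. That fit rests on the 3xTgAD-BKO males, the only group of either tissue on more than 1 slide, with both arrays of mouse 0 among them. On slide 2, the brain array of mouse 0 set against the hippocampal arrays of males 8 and 9 gave -1.99 for Hspb3, -0.97 for Dnajc12, 1.24 for Dnajc6 and 0.71 for Hspa1a, and 41 of the 57 called and detected genes had the sign of the full comparison.

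The main question of the study was what the loss of B cells changes in 3xTgAD mice. Among the chaperones, 0 genes were called in females in hippocampus (0.37% of all genes), 0 in females in brain (1.12%), and 0 in males in brain (0.961%). In males in hippocampus 1 gene, Dnaja4, was called, and it was higher in 3xTgAD-BKO mice, where 0.847% of all genes were called and 0.605% were higher. At an unadjusted p under 0.05, limma gave 15 of the 88 genes in females in hippocampus (16.4% of all genes), 13 in females in brain (12.9%), 6 in males in brain (11.5%) and 24 in males in hippocampus (18.2%). The methods' unpaired t-test gave 0 after adjustment in each. The mean of the female and male changes, a comparison added after seeing the data, called Dnaja4 in hippocampus (1.02% of all genes called, 0.596% higher) and Hspb8 in brain (2.64%, 1.53% higher). A single gene is 1.14% of the 88, close to these shares.

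The count in males in hippocampus had the widest range of these over the other settings, from 0 to 23. Of the 3xTgAD-BKO males only mouse 0 shared a slide with the 3xTgAD males, and with the slide as a block, so that the comparison rests on the array of mouse 0 that stood apart, 23 chaperones were called, 14 of them higher (15.4% of all genes were called). Without mouse 9, 7 were called (4.03% of all genes), and Dnaja4 was called whichever mouse was left out (0.72 to 0.88). Dnaja4 was not called in a fit of only the groups compared (adjusted p = 0.208). In females, leaving out mouse 6 gave 3 calls in hippocampus (1.81% of all genes), a fit in which mouse 7 alone stood for its group and the spread came from the other groups.

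The tests between genotypes could miss changes of moderate size. The median standard error of the 88 genes was 0.16 for females and 0.130 for males in hippocampus. When 200 genes of simulated data were shifted by 1 on the log2 scale, 54.5% were called in the female and 65.5% in the male hippocampal comparison, and with a shift of 0.5 the shares were 0% and 3.5%. For the tissue comparison the share was 85% at a shift of 0.5. The simulated noise was independent with no slide effect, and the shifted genes were well above background on all arrays. In the real tissue comparison 51.1% of all genes were called, so these shares are a rough guide only.

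**Figure D3:**
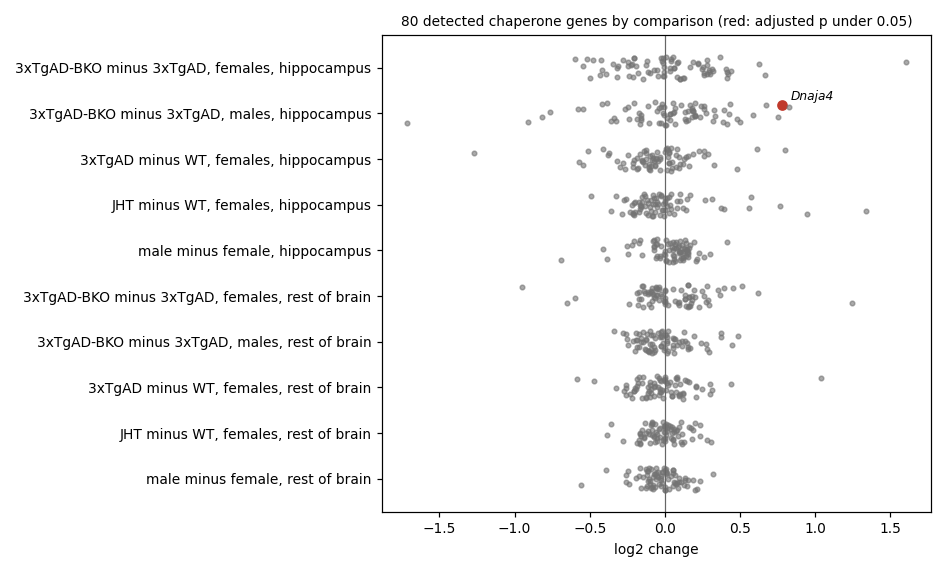
Log2 change of the 80 detected chaperone genes (1 point a gene) in 5 comparisons of genotypes or sexes in each tissue, without the means over both sexes and the differences between changes, with genes of adjusted p under 0.05 in red. In these, Dnaja4 in 3xTgAD-BKO against 3xTgAD males in hippocampus (0.78) is the red point.

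Dnaja4, the J-domain gene already described as higher in hippocampus, was low in all 5 3xTgAD mice in both tissues. In hippocampus it was 12.86 and 12.87 in 3xTgAD females and 12.78, 12.79 and 12.86 in 3xTgAD males. In 3xTgAD-BKO mice it was 13.12 and 13.16 in females and 13.71, 13.68 and 13.38 in males. WT mice had 13.29, 13.48 and 13.35, and JHT mice 13.37 and 13.33. Thus every 3xTgAD mouse lay below every mouse of the 3 other genotypes. The change in males was 0.78 (SE 0.0962, adjusted p = 0.00489) and that in females 0.28 (SE 0.118, adjusted p = 0.279). The difference between the sexes was -0.50 as female minus male change (SE 0.152, adjusted p = 0.102), and 3xTgAD females differed from WT by -0.51 (SE 0.108, adjusted p = 0.0681).

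In the rest of the brain, Dnaja4 was 12.44 and 12.25 in 3xTgAD females and 12.39, 12.40 and 12.51 in males. It was 12.67 and 12.92 in 3xTgAD-BKO females, 12.78, 12.84 and 12.81 in 3xTgAD-BKO males, 12.62, 13.13 and 13.03 in WT and 12.88 and 12.80 in JHT mice. Again no 3xTgAD mouse reached the range of the others. A second probe of Dnaja4 did not show this order: its hippocampal values ran from 6.62 to 7.14 in 3xTgAD and from 6.63 to 7.28 in the other mice, and its brain values from 6.20 to 7.64 and from 5.74 to 6.99. With the mean of the probes, the change in males in hippocampus was 0.54 (adjusted p = 0.0659). Over both sexes it was 0.38 in hippocampus (adjusted p = 0.101) against 0.53 with the brighter probe (adjusted p = 0.00846), and 0.06 in brain (adjusted p = 0.857) against 0.41 (adjusted p = 0.0596), so the brain difference rests on the brighter probe.

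Hspb8 showed a similar order with 1 exception. In hippocampus it was 8.63 and 8.51 in 3xTgAD females and 8.39, 9.71 and 8.65 in 3xTgAD males. In 3xTgAD-BKO mice it ranged from 9.26 to 10.44, in WT from 9.73 to 9.94, and in JHT mice it was 10.15 in both. The male with 9.71 (mouse 4) lay within the range of the others, and the other 4 3xTgAD mice lay below it. The hippocampal change was 1.60 in females (SE 0.390, adjusted p = 0.120) and 0.82 in males (SE 0.319, adjusted p = 0.213), and over both sexes it was 1.21 (SE 0.252, adjusted p = 0.0564). None of these was called, and the last was called in 7 of 22 other settings, among them the fit without mouse 4.

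In brain, Hspb8 was 9.64 and 9.44 in 3xTgAD females and 9.44, 9.41 and 9.59 in males, while the 3xTgAD-BKO mice ranged from 9.76 to 10.17, WT from 9.82 to 10.12 and JHT from 10.10 to 10.23. The 3xTgAD mice lay below all others. The change over both sexes was 0.42 (SE 0.0948, adjusted p = 0.0458), and the call was lost in 5 other settings, with 75th percentile scaling (adjusted p = 0.0624), the deposited scores (0.0793), all 30 arrays in 1 fit (0.405), only the groups compared (0.0935) and the methods' t-test (0.0612). It was also lost in 8 of the 10 fits that left out 1 mouse, all but those without mouse 6 or 9. The change itself lay between 0.36 and 0.48 in those 10 fits.

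The mean of endothelium markers was also lowest in 3xTgAD mice, in hippocampus without the exception seen for Hspb8 in mouse 4. Levels of the other cell type lists by genotype are not given here, apart from smooth muscle and pericyte markers. The mean of 10 endothelium markers ranged from 10.35 to 10.65 in the hippocampus of 3xTgAD mice, from 10.82 to 11.42 in 3xTgAD-BKO, from 10.80 to 11.13 in WT and from 11.12 to 11.40 in JHT mice. In brain it ranged from 10.63 to 10.88 in 3xTgAD, from 10.96 to 11.34 in 3xTgAD-BKO, from 11.01 to 11.35 in WT and from 11.19 to 11.38 in JHT mice. The 3xTgAD mice were thus lowest in both tissues without overlap. Of single genes, 1.71% in hippocampus and 2.83% in brain set the 3xTgAD mice apart, and no such share is given for means of lists. The mean of 8 smooth muscle and pericyte markers in hippocampus ran from 8.26 to 8.94 in 3xTgAD and from 9.00 to 9.40 in 3xTgAD-BKO mice, with WT (8.58 to 8.89) overlapping the 3xTgAD mice. All 10 endothelium and 8 smooth muscle and pericyte markers were well above background on the hippocampal arrays, 1 marker of each list was called between 3xTgAD-BKO and 3xTgAD over both sexes, and their part in the order of Dnaja4 and Hspb8 was not tested.

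**Figure D4:**
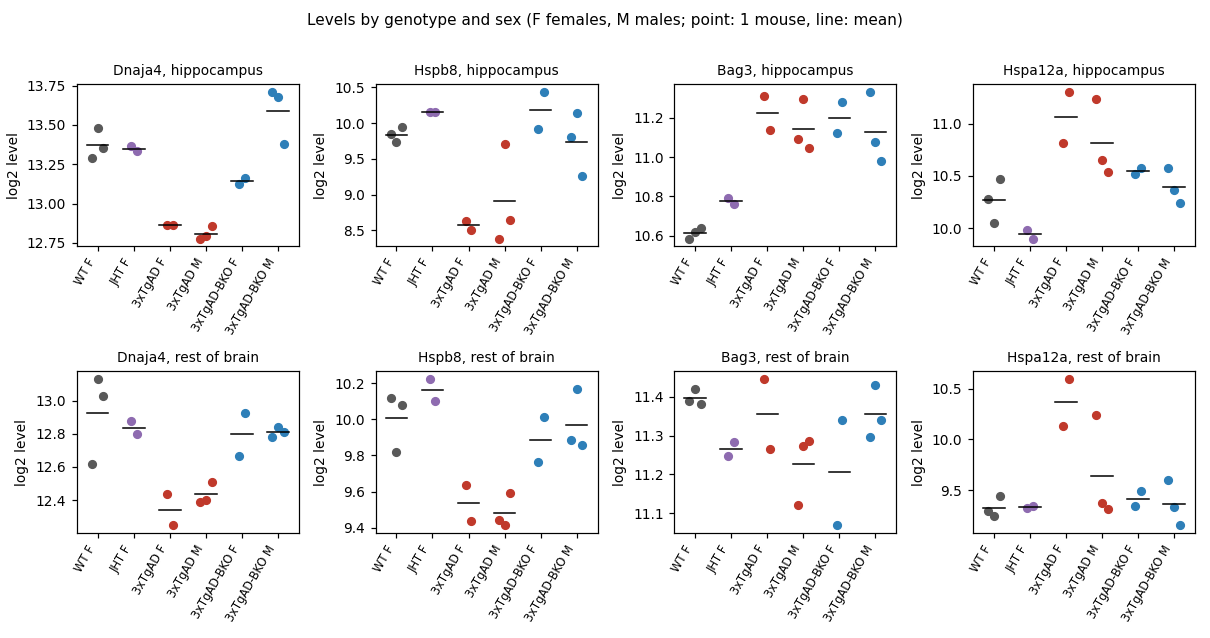
Log2 level of Dnaja4, Hspb8, Bag3 and Hspa12a in each mouse by genotype and sex (F females, M males), hippocampus above and rest of brain below, with a line at each group mean. The 3xTgAD points of Dnaja4 lie below all others in both tissues, and the transgenic points of Bag3 lie above the others in hippocampus only.

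Among the 76 chaperones that had a value and were well above background on every array, 1 set all 3xTgAD mice apart from all 10 other mice in hippocampus (1.71% of 19491 genes did), 2 in brain (2.83%), and 1 in both tissues (0.965%). The counts of chaperones are near these shares.

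The second question was what the transgenes change in mice with B cells. Between 3xTgAD and WT females 0 chaperones were called in hippocampus (0.746% of all genes) and 0 in brain (1.15%), with 11 at an unadjusted p under 0.05 in each by limma (12% and 11% of all genes). The methods' t-test gave 0 after adjustment in both. These females were on different slides in both tissues, and with the slide as a block 10 chaperones were called in hippocampus (8.88% of all genes) and 1 in brain (3.08%). Of the groups in a tissue, only the 3xTgAD-BKO males were on more than 1 slide, so in hippocampus that block was set by mouse 0, whose array stood apart, against mice 8 and 9. Bag3, which delivers HSP70 clients to autophagy together with Hspb8, came closest in hippocampus. It was 10.59, 10.62 and 10.64 in WT and 10.79 and 10.76 in JHT mice, and between 10.98 and 11.33 in the 10 transgenic mice. The mice with and without transgenes did not overlap, which held for 1 of the 76 chaperones in hippocampus (0.631% of genes), for 0 in brain (1.07%) and for 0 in both tissues (0.226%).

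The change of Bag3 was 0.61 (SE 0.121, adjusted p = 0.0545) in hippocampus and -0.04 (SE 0.0964, adjusted p = 0.971) in brain, where the WT mice had 11.39, 11.42 and 11.38 and the 3xTgAD mice 11.12 to 11.45. With the slide as a block, set by mouse 0 in the same way, the hippocampal change of Bag3 was 0.30 (adjusted p = 0.329). The slide of the WT mice held 2 transgenic mice, the 3xTgAD-BKO males 8 and 9, with 11.08 and 10.98, and the part of the slide in the difference was not tested.

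Hspa12a, the HSP70 relative higher in hippocampus, divided the 3xTgAD mice among themselves. In hippocampus the 3xTgAD mice 1, 2 and 3 had 10.82, 11.31 and 11.24, against 10.66 and 10.54 in mice 4 and 5. In brain the same 3 mice had 10.13, 10.60 and 10.24, against 9.37 and 9.31, and the other genotypes ranged from 9.15 to 9.60. So 3 of the 5 3xTgAD mice, both females and 1 male, lay above all mice of the other genotypes in each tissue, while in brain the other 2 males lay within their range. This gene was singled out after its values were seen. The change from WT in females was 1.04 in brain (SE 0.256, adjusted p = 0.1) and 0.80 in hippocampus (SE 0.219, adjusted p = 0.156).

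The stress-inducible genes and the chaperones of the organelles, of TRiC and of synapses had no calls in any of the 15 comparisons of genotype or sex by limma. Over those comparisons the list medians ran from -0.16 to 0.13 for the stress-inducible genes, from -0.10 to 0.15 for the endoplasmic reticulum, from -0.31 to 0.24 for mitochondria, from -0.09 to 0.21 for TRiC and from -0.28 to 0.07 for the neuronal and synaptic list. The highest mitochondrial median was that of 3xTgAD-BKO against 3xTgAD males in hippocampus, and the lowest synaptic median was that of the females. In 3xTgAD against WT females, the median change was -0.08 for the 9 stress-inducible genes in hippocampus and -0.07 in brain, beside -0.01 and 0.00 over all genes. Hspa1a changed by -0.37 in hippocampus (interval -0.72 to -0.03, adjusted p = 0.377) and -0.10 in brain (interval -0.34 to 0.14). Hspa5, which unfolded protein in the endoplasmic reticulum induces, changed by -0.11 (interval -0.55 to 0.34) and -0.13 (interval -0.51 to 0.26). Hspd1 changed by -0.11 (interval -0.39 to 0.17) and -0.04 (interval -0.23 to 0.15), and Hspe1 by -0.03 (interval -0.33 to 0.27) and -0.10 (interval -0.28 to 0.08). Of the 17 genes of the unfolded protein response 0 were called by limma in 3xTgAD against WT in either tissue, and the 12 immediate early genes had a median of -0.86 in hippocampus with 1 called lower and -0.95 in brain with 2 called lower.

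For the loss of B cells, these genes also did not pass the threshold. Over both sexes, Hspa1a changed by 0.08 in hippocampus (interval -0.16 to 0.32) and 0.10 in brain (interval -0.07 to 0.27), Hspa5 by 0.01 (interval -0.31 to 0.33) and 0.02 (interval -0.26 to 0.29), and Hsp90b1 by 0.12 (interval -0.19 to 0.43) and 0.07 (interval -0.13 to 0.27). Hsf1 changed by 0.12 (interval -0.08 to 0.33) and 0.23 (interval 0.01 to 0.44, adjusted p = 0.309). Hspb1 changed by 0.49 in hippocampus (interval 0.08 to 0.91, adjusted p = 0.363) and 0.04 in brain.

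JHT and WT females, which differ in B cells without the transgenes, gave 0 called chaperones in hippocampus (0.0926% of all genes) and 0 in brain (0.161%) by limma, with 6 and 3 at an unadjusted p under 0.05 (7.83% and 6.31% of all genes). The methods' t-test gave 0 after adjustment in both. Dnaja4 changed by -0.03 (interval -0.26 to 0.21) and -0.09 (interval -0.40 to 0.22) and Hspb8 by 0.31 (interval -0.48 to 1.10) and 0.16 (interval -0.14 to 0.46). Hspb1 was 12.77 and 12.90 in the hippocampus of JHT mice and 11.70, 12.43 and 12.09 in that of WT mice, and the change was 0.76 (SE 0.267, adjusted p = 0.554). The choroid plexus markers of the same arrays had a median change of 5.50, and their part in the value of Hspb1 was not tested.

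Males and females of the 2 transgenic genotypes gave 0 called chaperones in hippocampus (0.0381% of all genes) and 0 in brain (0.139%) by limma, with 5 and 10 at an unadjusted p under 0.05 (5.82% and 9.38% of all genes). The sex difference of the 3xTgAD-BKO change likewise gave 0 in hippocampus (0.0245%) and 0 in brain (0.101%), with 24 and 7 unadjusted (21.2% and 8.75%), and the tissue difference of the female change gave 0 (0.123%) with 9 unadjusted (9.9%). With the slide as a block, 10 chaperones were called between the sexes in hippocampus (8.02% of all genes) and 16 for the sex difference there (13.4%), and with all 30 arrays in 1 fit 9 were called for the latter (8.24%). Both fits with the slide rest on mouse 0 as well. Of the sex differences, Hspbp1, a nucleotide exchange factor of HSP70, and Dnajc17, a J-domain protein of the spliceosome, had the smallest adjusted p. In hippocampus Hspbp1 changed by 0.62 in females (adjusted p = 0.144) and by -0.58 in males (adjusted p = 0.0839), a difference of 1.20 (SE 0.219, adjusted p = 0.0732). Dnajc17 changed by 0.67 (adjusted p = 0.110) and -0.36 (adjusted p = 0.181), a difference of 1.02 (SE 0.199, adjusted p = 0.0732). Leaving out 1 mouse of those groups moved the count of the hippocampal sex difference from 0 to 6, without mouse 6 (4.12% of all genes) or without mouse 9 (4.56%), and without mouse 6 its group is again mouse 7 alone.

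The spread between mice of a group was taken over genes on all arrays, not matched for level. The median within-group SD of the chaperones was 0.142 in hippocampus and 0.113 in brain, against 0.185 and 0.144 for all genes. The largest SDs in hippocampus were those of Dnajc2, a ribosome-bound J-domain protein (0.94), Dnajc8 (0.55), Dnajc25 (0.48), Hspb8 (0.41), Hspb2 (0.41) and Dnajc13, an endosomal J-domain protein (0.40). On the hippocampal array of mouse 0, Dnajc2 lay 3.1 below the median of the other arrays, Dnajc8 2.15, Dnajc13 1.61, the TRiC subunit Cct4 1.3 and Hsp90ab1 1.06 below. In all, 10.5% of chaperones deviated by more than 1 there, as did 8.10% of all genes, while on every other array at most 1 of them did. Without that array, the largest SDs were those of Hspb8 (0.44), Dnajc25 (0.39), Hspb6 (0.38), Hspb3 (0.36), Hspb2 (0.32) and Hspb1 (0.31), 5 of them small heat shock genes. In brain the largest were those of Hspbp1 (0.30), Hspa12a (0.29), Hspa12b (0.29), Dnajc25 (0.27), Dnajc28 (0.24) and Dnajc6 (0.23).

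**Figure D5:**
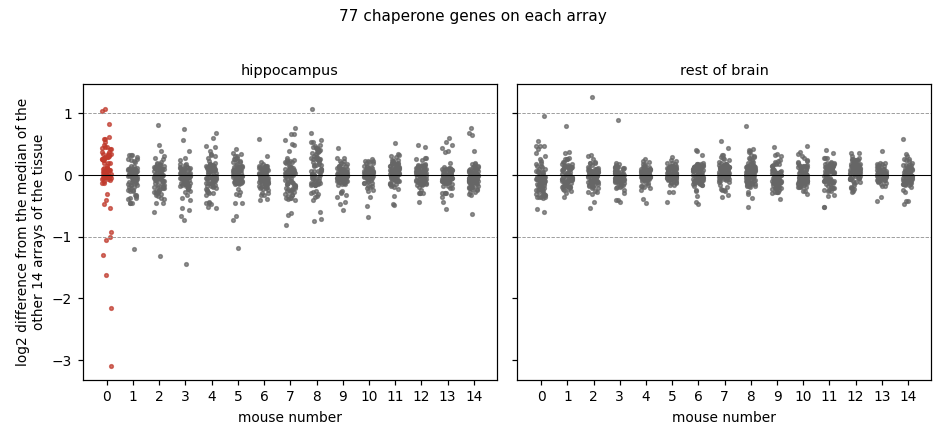
Log2 difference of each of the 77 chaperone genes on an array from the median of the other 14 arrays of the tissue, by mouse number, with dashed lines at 1 and -1. The hippocampal array of mouse 0 (red) reaches -3.1 for Dnajc2, and the brain array of the same mouse does not stand out.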

How the data were processed

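RNA of 15 hippocampi and 15 brains without hippocampus was labelled with Cy3 and hybridised to 1-colour Agilent mouse arrays. The authors deposited scanner output, whose intensity columns hold the background-subtracted processed signal of each spot, and a table of scores, which matched a within-array Z score of log10 signal for each spot set against the scanner values. Columns of the authors' own comparisons were not used.

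Control spots (3671 of 62976) and outlier spots were left out, spots of a probe averaged, log2 values quantile-normalized over the 30 arrays, and 1 probe a gene kept (the highest mean). Symbols came from RefSeq accessions. Group means were fitted in limma (version 3.58.1, R 4.3.3), per tissue with 6 groups or over both tissues with 12, and adjusted over 36717 genes and transcripts. The scripts were tested on simulated data. No spot was saturated, 52.6% to 62.5% of probes were well above background on each array, and the 75th percentile of signal was 394 to 698 in hippocampus and 709 to 1384 in brain.

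The chaperones, the gene lists and the tests were chosen with earlier results of these data known. Named were 21 preset genes, the 6 largest called changes in each direction of a comparison and the 6 largest within-group SDs of a tissue. Others named (Bag4, Dnajc17, Hspbp1, Hspa4, Dnajc15, Dnajc4, Dnajb9, Dnajb6, Dnajb4, Dnajc3, Dnaja2, Dnajc10, Dnajc19, Bag1, Cct2, Cct3, Cct4, Cct7, Hspb9 and the 8 dim genes) were chosen after their values were seen.

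Both tissues carry the same mouse numbers. Over 19491 genes, the deviations of same-numbered arrays from their group means correlated with a median r of 0.105 (from -0.178 to 0.240, 8 of 15 pairs above 0.1), against -0.0446 for different mice of a group, so the mouse entered only as an alternative block. Alternatives were other scalings, the deposited scores, normexp background correction, the mean of a gene's probes, a filter on dim probes, each mouse left out, the slide or mouse as a block, other sets of arrays in the fit, the methods' unpaired t-test and a threshold of 0.1.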

Additional observations from a re-analysis of the deposited data

Results flagged for a closer look

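In groups of 5 mice of a genotype (both sexes together) the lowest or highest value was compared with the others by Dixon's ratio for the preset and called genes. This singled out 7 of 115 groups, where chance flags about 1 in 20. On the hippocampal array of mouse 0, a 3xTgAD-BKO male, 3 values were low: Hspa2 at 11.99, with the next mouse at 12.84, Hspa8 at 17.15, with the next at 17.49, and Hsp90ab1 at 15.96, with the next at 16.97. The brain array of the same mouse had a high Dnajb2, at 13.01 against 12.66. The 3xTgAD-BKO male 8 had a high Hspa4l in hippocampus, at 13.39 against 12.92, and a high Hspa12b in brain, at 9.94 against 9.23. Among the 3xTgAD mice, male 4 had a high Hspb8 in hippocampus, at 9.71 against 8.65, and that value is why the hippocampal ranges of Hspb8 overlapped.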

How the results depend on the processing

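Counts are of the 88 chaperones. Where no share of all genes is given for a count, here or above, it cannot be set against the whole array. In the tissue comparison (61), other settings gave 53 to 81, except males only (26), WT mice only (27) and the slide as a block (22, added after seeing the data), and leaving out 1 mouse gave 53 to 63. With the mouse as a replicate block (the pairing by mouse number) 58 were called there and 0 in the tissue difference of the female change, so the pairing moved no count past 1.5 times. No paired fit was possible between genotypes, which share no mouse. Quantile normalization within each tissue moved the median of all genes to -0.97 and turned 20 of the 21 called and detected higher genes to lower, among the genes followed Hspa1a (-0.27), Hspa2 (-0.0413), Hspa8 (-0.38), Hsph1 (-0.66), Dnajc5 (-0.45), Hspa12a (-0.12), Dnajc27 (-0.41) and Dnaja4 (-0.52). Relative to that median, all 57 called and detected genes kept their sign. The genes near 0 in the tissue comparison changed sign as follows. Scaling to the 75th percentile gave Hsp90ab1 0.36, Hsp90b1 0.0427, Hspd1 0.0403 and Hspe1 0.024, and the deposited scores (in score units) gave Hsp90aa1 0.0369, Hsp90ab1 0.146, Hsp90b1 0.0414, Hspd1 0.0367 and Hspe1 0.0247. The mean of the probes gave Hspe1 0.00435, females only gave Hsf1 0.0102 and Hsp90ab1 0.0345, and males only gave Hsp90b1 0.0302, Hspd1 0.0895 and Hspe1 0.00422. WT mice only gave Hsp90ab1 0.048, leaving out mouse 0 gave it 0.0148 (range over the mice left out -0.0682 to 0.0148), leaving out only its hippocampal array 0.0259, and the slide block gave Hspa5 0.0233, Hsp90aa1 0.22, Hsp90ab1 0.76 and Hspe1 0.14. In the genotype comparisons, the slide block gave, for 3xTgAD-BKO against 3xTgAD in hippocampus, 1 in females, 23 in males (15.4% of all genes) and 14 over both sexes, and in brain 2, 2 and 7. It gave 10 and 1 for 3xTgAD against WT in hippocampus and brain, 10 for the sexes and 16 for the sex difference in hippocampus. All 30 arrays in 1 fit gave 2 in females, 7 in males and 2 over both sexes in hippocampus, 3 and 2 for 3xTgAD against WT in hippocampus and brain, and 9 for the sex difference in hippocampus. Normexp gave 2 in males and 2 over both sexes in hippocampus, 2 over both sexes in brain, and 1 and 2 for 3xTgAD against WT. The filter on dim probes gave 2 in males, over both sexes in either tissue, for 3xTgAD against WT and for the sex difference in hippocampus. The mean of the probes gave 0 in males and over both sexes in hippocampus and 1 in females in brain. Scaling to the 75th percentile gave 0 over both sexes in each tissue, and the scores 0 over both sexes in brain. Only the groups compared gave 0 in males and over both sexes and 1 for 3xTgAD against WT in hippocampus. The methods' t-test gave 0 adjusted in males and over both sexes in hippocampus. Unadjusted it gave 16 in females, 11 in males, 6 over both sexes, 18 for 3xTgAD and 12 for JHT against WT in hippocampus, and 17, 4, 6, 12 and 5 in brain, with no share of all genes given for these. A threshold of 0.1 gave 3 in males, 2 over both sexes, 2 for 3xTgAD against WT and 10 for the sex difference in hippocampus, and 2 over both sexes and 2 for 3xTgAD against WT in brain. Without the hippocampal array of mouse 0 there was 1 in females and 2 for 3xTgAD against WT in hippocampus. Leaving out 1 mouse gave 0 to 3 in females (3 without mouse 6), 1 to 7 in males (7 without mouse 9), 1 to 3 over both sexes (3 without mouse 6), 0 to 1 for JHT against WT (1 without mouse 14), 0 to 1 for the sexes (1 without mouse 6) and 0 to 6 for the sex difference (6 without mouse 6 or mouse 9), all in hippocampus. In brain it gave 0 to 1 in females (1 without mouse 2 or 7), over both sexes (0 without mouse 1, 3, 4, 5 or 8), for 3xTgAD against WT (1 without mouse 2 or 10), for the sexes and for the sex difference (1 without mouse 2 or 7), and 0 to 1 for the tissue difference in females (1 without mouse 2 or 6). The cause of these changes was not tested. Signal over background limits the 8 dim genes, and groups of 2 or 3 mice limit all genotype comparisons.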
